A study of Mus musculus with 14 samples.

Results

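Collagens are the fibrous and sheet-forming proteins of the extracellular matrix. Their chains are made in the endoplasmic reticulum, where prolines and lysines are hydroxylated and chaperones help the chains wind around each other, and many are trimmed and cross-linked after secretion. Fibroblasts are a main source of fibrillar collagen, and mast cells in connective tissue lie among such fibres. The collagen chain genes were read on mouse arrays of mast cells, by taking every probe that is not a control and whose gene name is Col, a number, the letter a and a number. That rule found 78 of 41174 probes, for 39 genes. Of these genes, 11 had a single probe and 28 had 2 or more, and each gene was read by its probe of highest mean signal. By class, 11 were fibrillar chains, 6 basement membrane chains, 3 beaded filament chains, 1 an anchoring fibril chain, 3 hexagonal network chains, 8 fibril-associated chains, 4 transmembrane chains, 2 multiplexins and 1 another chain.

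The mast cells were grown from mouse bone marrow in medium with IL-3 and are called bone marrow-derived mast cells (BMMCs). The groups were Pla2g3 knockout cells after 96 h of coculture (3 arrays), wild-type cells after the same coculture (4 arrays), knockout BMMCs (4 arrays) and wild-type BMMCs (3 arrays). Pla2g3 encodes group III secreted phospholipase A2, and both genotypes carried the strain label C57BL/6.129Sv-N3. Coculture was on a layer of Swiss 3T3 cells, a mouse fibroblast line, with stem cell factor at 100 ng/ml, after which cells were detached with trypsin, replated, and the floating cells taken. Per the labels, flow cytometry found Kit and FcεRIα on over 99% of cocultured cells, while RNA of fibroblasts left in the harvest was not measured separately. Stem cell factor is given for cocultured cells alone, so the fibroblasts and the factor cannot be told apart as sources of a change. Nothing in the labels ties a replicate to a mouse or culture of its own, and the spread behind the p-values may therefore be technical.

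Values below are log2 signals relative to the array's own 75th percentile, so a level of 0 is that percentile, and levels are compared only within a probe. A reading is called detected where the scanner software marked it well above background. The arrays had 42.6% to 55.9% of probes detected. The Pla2g3 probe was detected on all 4 knockout BMMC arrays, at -1.96 to -1.31, and on 1 of 3 wild-type BMMC arrays, at -4.69 to -2.95 over the 3. It was detected on every knockout cocultured array, at -3.21, -1.78 and -1.97. On wild-type cocultured arrays it was at -4.33, -3.25, -4.14 and -2.22, detected on arrays 2 and 4, so the cocultured groups overlapped. The sources used here do not say which part of Pla2g3 was deleted, so this probe was not used to check labels. On the first principal component of the 7 cocultured arrays, which held 53% of their variance, the arrays labelled knockout cocultured 1, 2 and 3 scored 77.1, 74.1 and -49.4. Those labelled wild-type cocultured 1 to 4 scored -45.0, -79.3, 83.6 and -61.0. The arrays labelled knockout cocultured 3 and wild-type cocultured 3, both on slide 4, thus each lay with the other genotype, and where leaving out this pair changed the call of a gene named here, the value without it is given beside it. The pair was picked by expression on these same arrays. Leaving it out can narrow the spread of genes that follow this component, so p-values without it are descriptive and no independent test.

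Collagen probes were detected more widely after coculture. Of the 39 genes, 15 were detected on every knockout cocultured array and 15 on none, and 17 were detected on every wild-type cocultured array and 11 on none. In knockout BMMCs 9 were detected on every array and 24 on none, and in wild-type BMMCs 8 on every array and 24 on none. Per array, 15, 18 and 24 collagens were detected in knockout cocultured cells and 22, 28, 17 and 22 in wild-type cocultured cells, against 12, 10, 9 and 12 in knockout BMMCs and 8, 10 and 14 in wild-type BMMCs. The counts of cocultured and BMMC arrays did not overlap in either genotype. Over all probes the detected shares did overlap. They were 44.4% to 55.9% on knockout cocultured and 42.6% to 54.2% on knockout BMMC arrays. In wild-type cells they were 49.3% to 54.9% on cocultured and 47.5% to 52.1% on BMMC arrays.

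By the probe that stood for each gene, the 39 genes fell into 7 detection patterns, which were not counted over all genes. Detected on no BMMC array and on every cocultured array were 6 genes, which were Col1a1, Col3a1, Col5a1, Col5a2, Col5a3 and Col16a1. Another 8 were detected on no BMMC array and on some cocultured arrays, among them the basement membrane chain Col4a2, the beaded filament chain Col6a1 and the transmembrane collagen Col23a1. Detected on all 14 arrays were 7 genes, namely Col2a1, Col4a4, Col4a6, Col7a1, Col9a2, Col15a1 and Col18a1. Col1a2 and Col8a1 were detected on every cocultured array and on some BMMC arrays, and Col27a1 was the 1 gene detected on every BMMC array but not on every cocultured one. The other 7 with readings above background had mixed patterns, and 8 genes, Col8a2, Col9a3, Col10a1, Col14a1, Col17a1, Col19a1, Col22a1 and Col24a1, were detected nowhere.

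**Figure D1:**
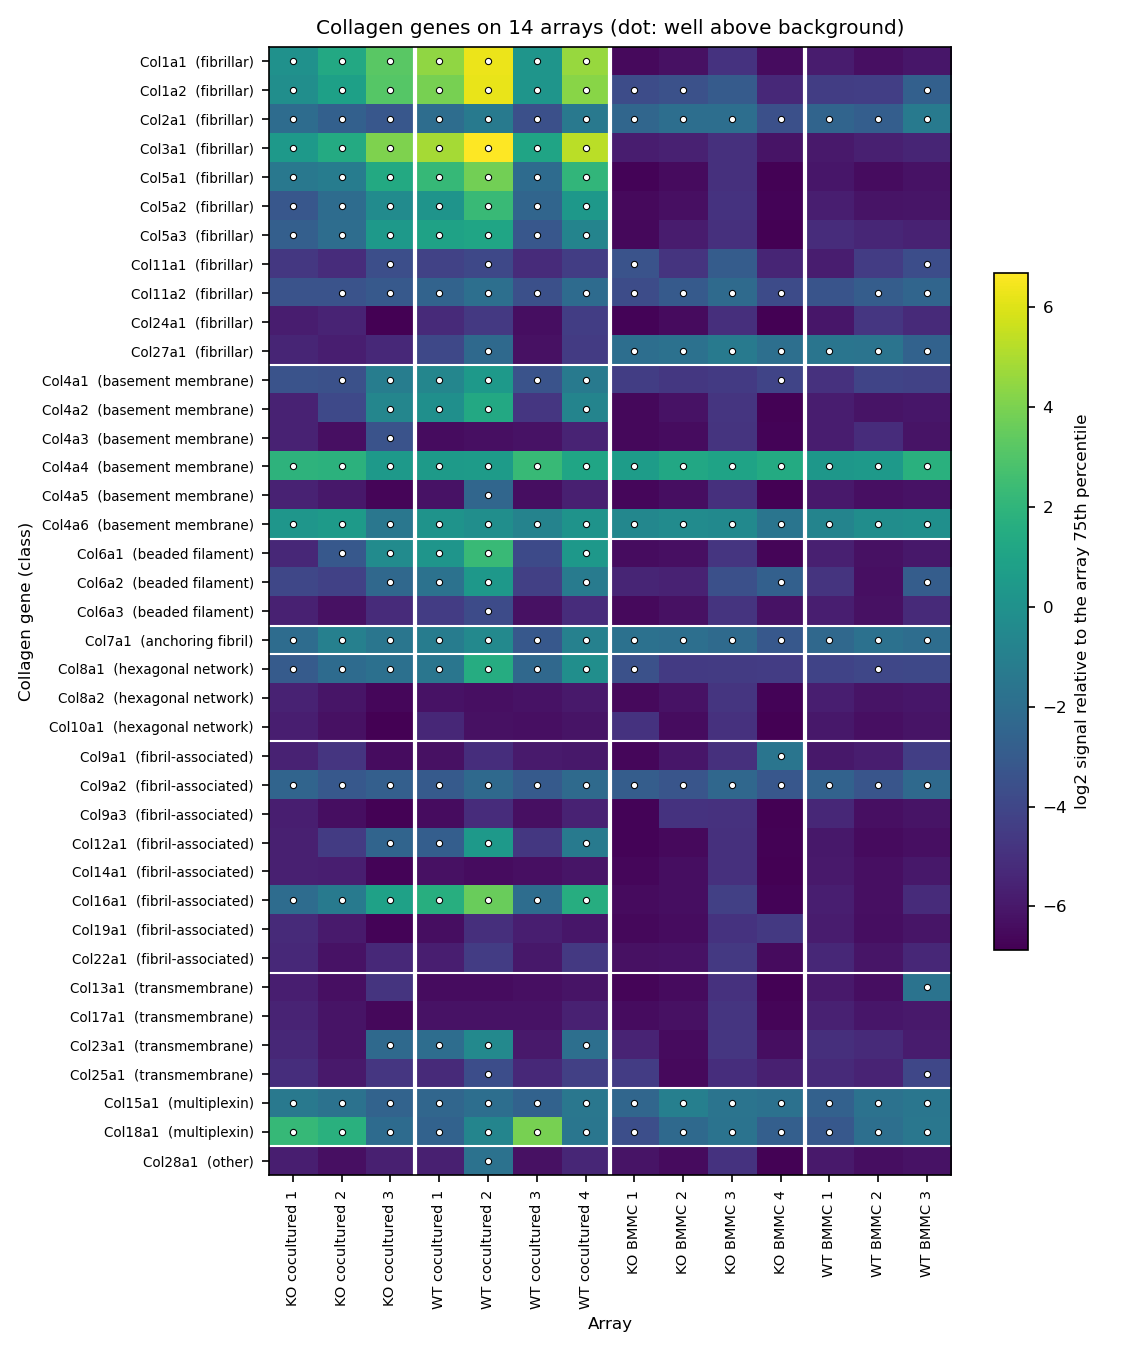
Level of each of the 39 collagen genes (down the page, by class) on each of the 14 arrays (across, knockout and wild-type cocultured arrays left of knockout and wild-type BMMC arrays), as log2 signal relative to the 75th percentile of the array, with a dot where the reading was well above background. Colours are to be read along a gene and not between genes; the dots number 15 to 24 on knockout cocultured arrays, 17 to 28 on wild-type cocultured arrays, 9 to 12 on knockout BMMC arrays and 8 to 14 on wild-type BMMC arrays.

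Coculture was compared with BMMCs in each genotype to see which collagen RNAs differed in the harvest. Most of the tested fibrillar chains, 6 of 10, rose in each genotype. In knockout cells 7 collagens rose and 1 fell, and in wild-type cells 12 rose and 1 fell, out of the 24 collagens that could be tested because they were detected on at least 3 arrays. Those that rose in both genotypes included Col3a1 and Col1a1, chains of type III and type I collagen, and the 1 gene that fell in each genotype was Col27a1, a fibrillar chain known from cartilage. Among all 16010 genes tested with limma in the same fit, 14.3% passed in knockout cells, 7.78% higher and 6.5% lower, and 12.9% passed in wild-type cells, 6.02% higher and 6.87% lower. The median log2 change of the 24 tested collagens was 1.85 in knockout cells and 3.05 in wild-type cells, against 0.07 and -0.06 over all genes. These medians depended on the setting: they were 0.97 and 2.02 with readings below background set to the lowest signal above it, 0.76 and 0.71 with normexp background correction, and 0.35 and 0.40 with no filter on dim probes, while leaving out knockout cocultured 3 gave 1.14 in knockout cells.

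The remaining 15 collagens were detected on too few arrays and were not tested. Of the 24 tested, 10 were detected on no BMMC array and so entered the test through coculture alone, and 6 of these rose in knockout and 9 in wild-type cells, so these counts and medians describe the tested collagens and do not speak for all 39. In these bulk samples fewer cells of a type and less RNA per cell cannot be told apart.

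Type I collagen, the main fibre protein of skin, tendon and bone, is built from the chains of Col1a1 and Col1a2. Col1a1 (chromosome 11, 94813075 to 94813134 on mm9, + strand) was at -0.01, 1.31 and 3.25 on the knockout cocultured arrays and 4.42, 6.31, 0.21 and 4.60 on the wild-type cocultured arrays, against -6.50, -6.26, -4.86 and -6.39 in knockout BMMCs and -5.82, -6.31 and -6.04 in wild-type BMMCs. All 7 cocultured readings were detected and no BMMC reading was, and the cocultured and BMMC arrays did not overlap. The rise was at least 45.2-fold in knockout cells (log2 change 7.52, SE 1.12, adjusted p = 0.00122 in limma) and at least 238-fold in wild-type cells (log2 change 9.94, SE 1.12, adjusted p = 0.000126), each bound being taken against the lowest signal marked well above background on each BMMC array. The fitted log2 changes of this and other genes not detected in BMMCs rest on readings below background and are no measure of size, which the bounds limit from below. Where some cocultured readings were not detected, as for Col4a2, Col6a1 and Col12a1, the bound uses those readings as they are. Such a bound thus also rests in part on readings below background. Within slides the Col1a1 bound was 21.8-fold, 45.4-fold and 219-fold in knockout cells on slides 1, 2 and 4, and 389-fold and 722-fold in wild-type cells on slides 2 and 3. Without the cocultured pair of slide 4 it was 24.8-fold in knockout and 556-fold in wild-type cells.

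Col1a2 (chromosome 6, 4490619 to 4490678, + strand) was at -0.15, 0.83 and 3.13 in knockout cocultured cells and 3.89, 6.26, 0.21 and 4.26 in wild-type cocultured cells, against -3.69, -3.48, -2.97 and -5.30 in knockout BMMCs and -4.43, -4.37 and -2.70 in wild-type BMMCs. It was detected on 2 of 4 knockout and 1 of 3 wild-type BMMC arrays, so the change itself can be read, and the cocultured arrays again lay above all BMMC arrays. Its log2 change was 5.13 (SE 1.17, adjusted p = 0.013) in knockout and 7.49 (SE 1.17, adjusted p = 0.00132) in wild-type cells.

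Col3a1 makes type III collagen, which forms fine fibres in skin, vessel walls and soft organs. Its probe (chromosome 1, 45405589 to 45405648, + strand) was at 0.47, 1.44 and 4.07 in knockout cocultured cells and 4.87, 6.70, 1.03 and 5.27 in wild-type cocultured cells, against -5.77, -5.61, -5.00 and -6.17 in knockout BMMCs and -5.92, -5.69 and -5.44 in wild-type BMMCs. No BMMC reading was detected, and the 3 lowest cocultured arrays were the same as for Col1a1 and Col1a2. Col3a1 was at least 62.9-fold higher after coculture in knockout cells (log2 change 7.63, SE 1.08, adjusted p = 0.000888) and at least 356-fold higher in wild-type cells (log2 change 10.15, SE 1.08, adjusted p = 8.5e-05).

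Col1a2 and Col3a1 moved together, and their promoters are shown as the 250 bases before the RefSeq start (GRCm38.p6, + strand), with capitals on every match to CCAAT or GGGCGG or TATAAA, searched on both strands.
Col1a2, chr6:4505368-4505617: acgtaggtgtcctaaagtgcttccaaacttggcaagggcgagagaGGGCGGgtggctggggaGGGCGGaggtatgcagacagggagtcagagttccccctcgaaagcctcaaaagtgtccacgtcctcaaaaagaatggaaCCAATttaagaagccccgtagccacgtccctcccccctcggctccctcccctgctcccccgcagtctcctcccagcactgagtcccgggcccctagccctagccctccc
Col3a1, chr1:45311288-45311537: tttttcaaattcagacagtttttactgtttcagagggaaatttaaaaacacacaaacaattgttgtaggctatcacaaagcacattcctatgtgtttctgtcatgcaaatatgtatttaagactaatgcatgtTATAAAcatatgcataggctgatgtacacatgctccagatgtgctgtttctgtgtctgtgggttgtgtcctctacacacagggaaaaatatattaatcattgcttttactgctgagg
In Col1a2, GGGCGG starts 205 and 188 bases before the start and CCAAT 109 bases before it, and in Col3a1 TATAAA starts 117 bases before it. Of 31 collagen genes with an entry, 12 held CCAAT, 18 GGGCGG and 5 TATAAA, while 33.8%, 32.7% and 12.4% of 32851 promoter entries of the same length did. A gene was counted if any of its entries matched, and the shares are per entry, so the counts and shares are not like for like. Among the 9 with an entry that rose in wild-type coculture the counts were 5, 6 and 1. A match describes the letters in this window and names no factor at work.

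Type V collagen, whose chains start and thin the type I fibre, rose in all 3 of its chains in both genotypes. Col5a1 (chromosome 2, 27892892 to 27892951, + strand) was at -1.41, -1.16 and 1.37 in knockout cocultured cells and 2.24, 3.80, -2.12 and 2.04 in wild-type cocultured cells, against -6.73, -6.47, -5.01 and -6.81 in knockout BMMCs and -6.03, -6.40 and -6.22 in wild-type BMMCs. It was detected on cocultured arrays alone, at least 12.0-fold higher in knockout (adjusted p = 0.00461) and at least 45.4-fold higher in wild-type cells (adjusted p = 0.000701). Col5a2, the next gene to Col3a1 on chromosome 1 in RefSeq, was at least 4.35-fold higher in knockout (adjusted p = 0.00978) and 17.2-fold in wild-type cells (adjusted p = 0.00104). For Col5a3 the bounds were 5.90-fold (adjusted p = 0.00787) and 11.7-fold (adjusted p = 0.00517).

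Of type XI collagen, a fibrillar type of cartilage, the genes Col11a1 and Col11a2 did not pass. They had log2 changes of -0.30 (95% interval -1.70 to 1.1) and -0.12 (-1.07 to 0.84) in knockout and 0.21 (-1.19 to 1.61) and 0.34 (-0.62 to 1.29) in wild-type cells. Col24a1 was not detected. Over the class, 6 of 10 tested fibrillar chains rose and 1 fell in each genotype.

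**Figure D2:**
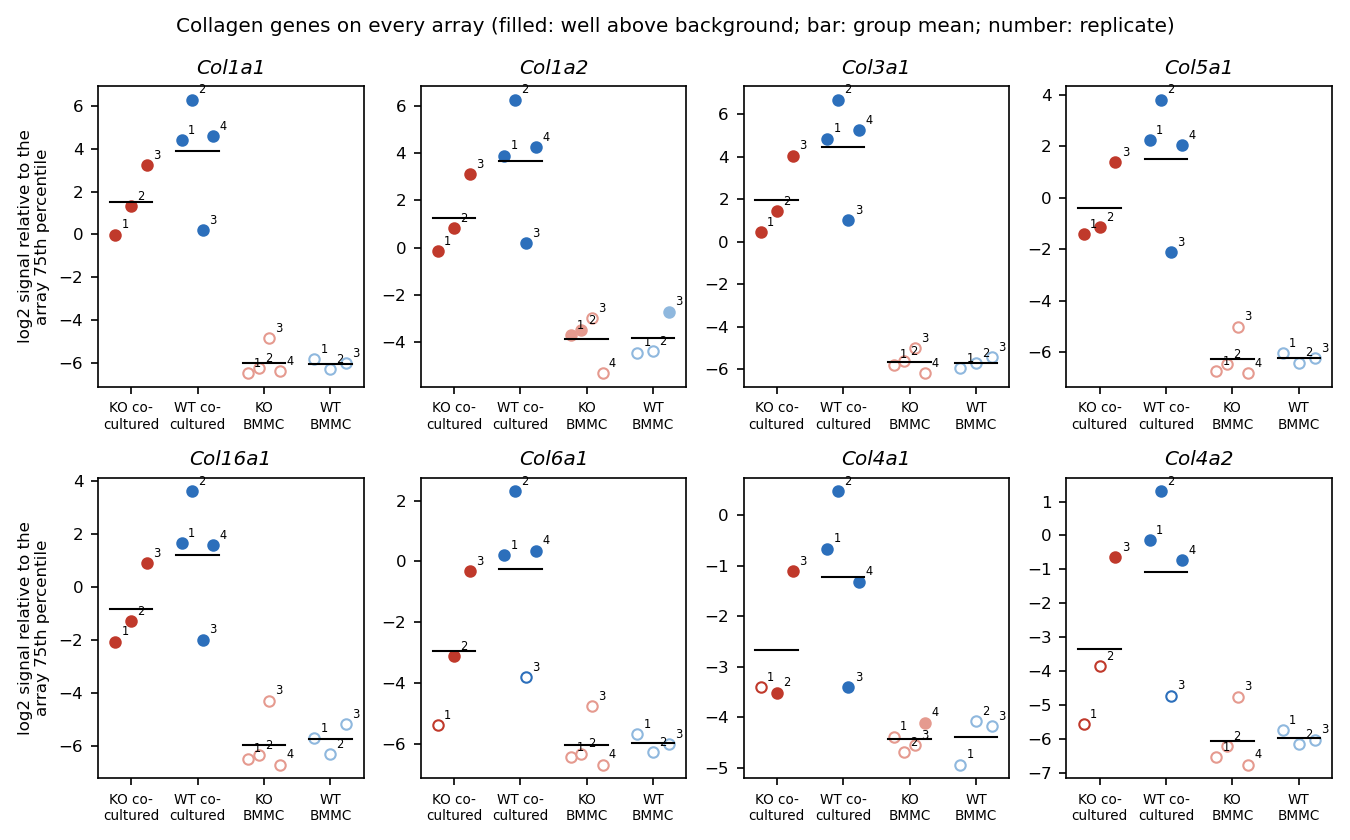
Level of 8 collagen genes (log2 signal relative to the 75th percentile of the array) on each array, in knockout cocultured (KO cocultured), wild-type cocultured (WT cocultured), knockout BMMC and wild-type BMMC samples; points are arrays numbered by replicate, filled where well above background, and the bar is the group mean. In every panel knockout cocultured 1 and 2 and wild-type cocultured 3 are the 3 lowest cocultured arrays and wild-type cocultured 2 the highest.

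Col27a1 went the other way. The probe that stood for it (chromosome 4, 62995485 to 62995544, + strand) was at -5.47, -5.71 and -5.29 in knockout cocultured cells and -3.93, -2.25, -6.23 and -4.51 in wild-type cocultured cells, against -1.96, -1.81, -1.32 and -1.90 in knockout BMMCs and -1.59, -1.63 and -2.62 in wild-type BMMCs. All 7 BMMC readings were detected, no knockout cocultured reading was, and of the wild-type cocultured readings the one on array 2 was, at a level above that of wild-type BMMC 3. Col27a1 was at least 5.04-fold lower after coculture in knockout cells (log2 change -3.74, SE 0.66, adjusted p = 0.0033). In wild-type cells its log2 change was -2.29 (SE 0.66, adjusted p = 0.0387), and leaving out any 1 wild-type BMMC array ended that call (adjusted p = 0.0586 to 0.133). The other 2 Col27a1 probes had changes of -1.66 and -1.29 in knockout and -0.60 and 0.03 in wild-type cells, and neither passed. One of these 2 was detected on knockout cocultured 3 and wild-type cocultured 2, and the other on wild-type cocultured 2.

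Col2a1, the main fibrillar chain of cartilage, was read differently by 2 overlapping probes, which are printed because the finding depends on which is used. They lie on the - strand of mm9 and share the 40 bases in capitals.
A_52_P216436, chr15:97806505-97806564: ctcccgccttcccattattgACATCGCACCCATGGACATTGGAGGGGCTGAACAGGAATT
A_51_P317141, chr15:97806485-97806544: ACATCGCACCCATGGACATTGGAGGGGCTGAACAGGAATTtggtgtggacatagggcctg
The first had the higher mean and stood for Col2a1. It was detected on all 14 arrays, at -2.09, -2.68 and -3.19 in knockout cocultured cells and -2.03, -1.34, -3.55 and -1.39 in wild-type cocultured cells, against -2.39, -1.95, -1.95 and -3.53 in knockout BMMCs and -2.48, -2.81 and -1.32 in wild-type BMMCs. Those groups overlapped throughout, and its log2 change was -0.20 (95% interval -1.44 to 1.04) in knockout and 0.13 (-1.12 to 1.37) in wild-type cells. The second was detected on all 7 cocultured arrays and on no BMMC array, at -2.76, -1.70 and 0.71 in knockout cocultured cells and 1.55, 3.67, -2.43 and 2.11 in wild-type cocultured cells, against -6.51, -6.31, -4.89 and -6.60 in knockout BMMCs and -5.80, -6.24 and -5.63 in wild-type BMMCs. With every probe tested on its own, the second rose by at least 6.65-fold in knockout (adjusted p = 0.0161) and 37.7-fold in wild-type cells (adjusted p = 0.00169), with the same 3 lowest cocultured arrays as Col1a1. No other of 41172 probes shared a run of 15 bases with either, and why they differ was not tested.

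Basement membrane chains rose in wild-type coculture in the pair Col4a1 and Col4a2, which are the chains of most basement membranes and are neighbours on chromosome 8. Col4a1 was at -3.40, -3.51 and -1.10 in knockout cocultured cells and -0.66, 0.48, -3.40 and -1.31 in wild-type cocultured cells, against -4.38, -4.68, -4.55 and -4.10 in knockout BMMCs and -4.93, -4.07 and -4.18 in wild-type BMMCs. Every cocultured array lay above every BMMC array of its genotype, and the rise was at least 6.73-fold in wild-type cells (adjusted p = 0.0162), while the knockout change of 1.76 (95% interval 0.11 to 3.41) did not pass (adjusted p = 0.145). Groups without overlap, cocultured above BMMC, were found for 9 tested collagens in knockout and 12 in wild-type cells, against 16.1% and 10.5% of all genes tested.

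Col4a2 was at -5.58, -3.87 and -0.64 in knockout cocultured cells and -0.13, 1.30, -4.73 and -0.73 in wild-type cocultured cells, with no BMMC array above -4.76, so that knockout cocultured 1 overlapped the BMMCs. It was detected on 1 of 3 knockout and 3 of 4 wild-type cocultured arrays and rose at least 7.67-fold in wild-type cells (adjusted p = 0.0232). In knockout cells its change of 2.71 (95% interval -0.03 to 5.46) did not pass (adjusted p = 0.176). Col4a4 and Col4a6, chains of more specialised basement membranes, were detected on all arrays. They had changes of 0.35 and 0.51 in knockout and 0.31 and 0.16 in wild-type cells, none past the threshold. Without the slide 4 pair Col4a6 rose by 1.14 in knockout cells (adjusted p = 0.0259 in limma). For each of these genes the other probes were detected on no array. Col4a3 and Col4a5 were detected on 1 array each.

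Beaded filament collagen VI is the microfibril that links cells to the surrounding fibres. Col6a1 was at -5.38, -3.11 and -0.31 in knockout cocultured cells and 0.20, 2.31, -3.80 and 0.36 in wild-type cocultured cells, against -6.42, -6.31, -4.76 and -6.67 in knockout BMMCs and -5.67, -6.26 and -5.99 in wild-type BMMCs. It was detected on 2 of 3 knockout and 3 of 4 wild-type cocultured arrays and rose at least 13.7-fold in wild-type cells (adjusted p = 0.0104), while the knockout change of 3.11 (95% interval 0.36 to 5.85) did not pass (adjusted p = 0.124). Col6a2 had changes of 0.83 (adjusted p = 0.665) in knockout and 2.93 (adjusted p = 0.0975) in wild-type cells, where it rose by 3.78 without the slide 4 pair (adjusted p = 0.0169), and Col6a3 was detected on wild-type cocultured 2 alone.

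Among fibril-associated chains, which coat the surface of fibres, Col16a1 rose in both genotypes. It was at -2.08, -1.31 and 0.88 in knockout cocultured cells and 1.63, 3.61, -2.00 and 1.57 in wild-type cocultured cells, with every BMMC array at -4.30 or lower and none detected. The rise was at least 8.88-fold in knockout (adjusted p = 0.00881) and 37.1-fold in wild-type cells (adjusted p = 0.00133). Col12a1 rose at least 3.82-fold in wild-type cells (adjusted p = 0.0167) and had a change of 2.03 (95% interval -0.16 to 4.22) in knockout cells. Col9a2, a cartilage chain, was detected on all arrays and had changes of 0.13 in knockout (95% interval -0.62 to 0.87) and 0.11 in wild-type cells (-0.63 to 0.86). Of the other 5 chains of this class, Col9a1 was detected on 1 array, knockout BMMC 4, and 4 on none.

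Col8a1, a short chain that forms a hexagonal lattice in vessel walls and under the corneal endothelium, was at -2.98, -2.11 and -1.88 in knockout cocultured cells and -1.52, 1.52, -2.27 and -0.18 in wild-type cocultured cells, against -3.51, -4.58, -4.52 and -4.46 in knockout BMMCs and -4.16, -3.97 and -3.95 in wild-type BMMCs. Cocultured arrays lay above BMMC arrays in both genotypes, and the change was 1.95 (adjusted p = 0.0771) in knockout and 3.41 (adjusted p = 0.00609) in wild-type cells. Col7a1, which makes the anchoring fibrils under the epidermis, had changes of 0.75 (95% interval -0.42 to 1.92) in knockout and 0.62 (-0.55 to 1.79) in wild-type cells, where it rose by 1.19 without the slide 4 pair (adjusted p = 0.0464). The transmembrane collagen Col23a1 was detected on knockout cocultured 3 and on wild-type cocultured 1, 2 and 4, and its changes of 1.19 (adjusted p = 0.527) and 2.81 (adjusted p = 0.129) in knockout and wild-type cells did not pass. Without the slide 4 pair Col23a1 rose in wild-type cells (adjusted p = 0.000578).

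**Figure D3:**
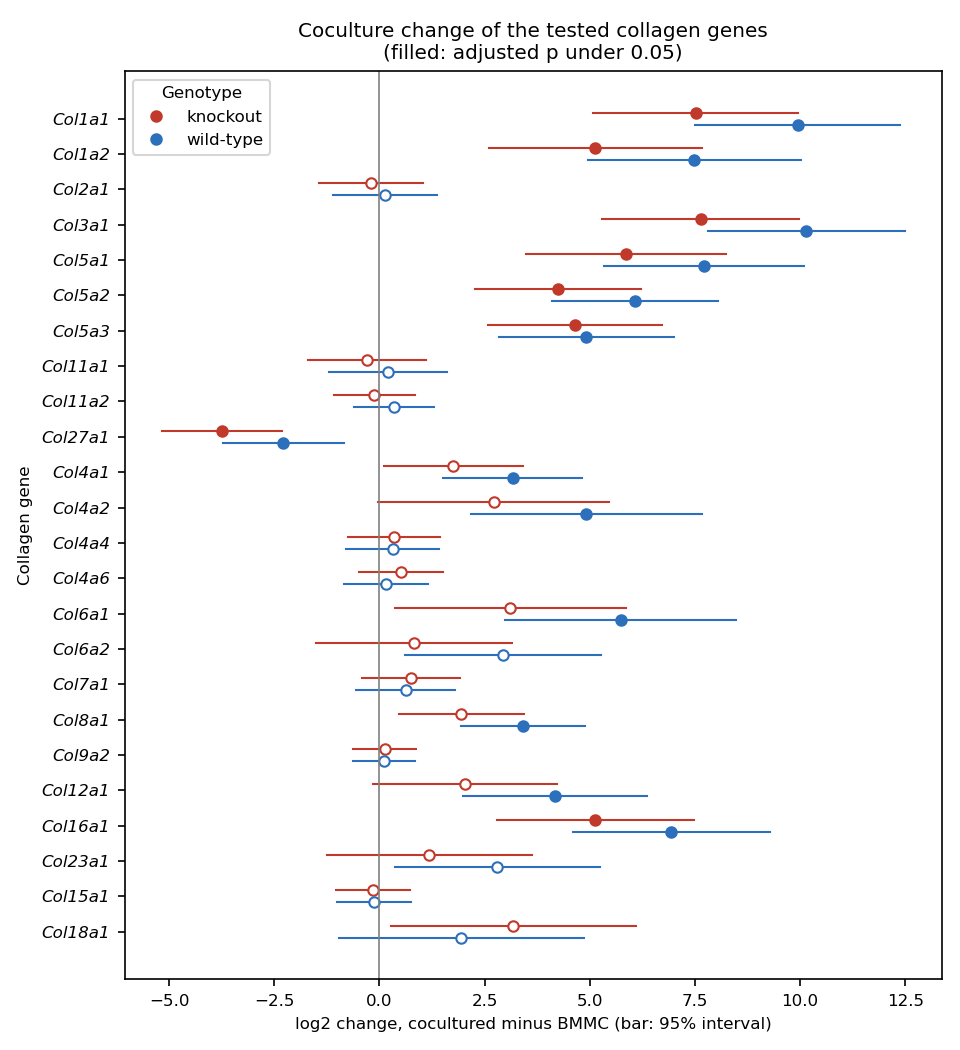
Log2 change, cocultured minus BMMC (horizontal), for the 24 tested collagen genes (down the page, by class), in knockout cells (upper point of each pair) and wild-type cells (lower point), with 95% intervals from limma and filled points where the adjusted p was under 0.05. The fitted changes of genes not detected on BMMC arrays depend on readings below background. For knockout cells 8 points are filled and for wild-type cells 13, and among the filled points Col27a1 is the 1 gene to the left of 0 in each genotype.

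Multiplexins sit at the border of basement membranes and the matrix beneath, and the end fragment of the Col18a1 product is endostatin. Col18a1 (chromosome 10, 76515820 to 76515879, - strand) was detected on all arrays, at 2.20, 1.74 and -2.15 in knockout cocultured cells and -2.58, -0.69, 3.93 and -1.55 in wild-type cocultured cells, against -3.62, -2.25, -1.68 and -2.78 in knockout BMMCs and -3.11, -1.90 and -1.50 in wild-type BMMCs. Its 3 highest arrays were the 3 on which Col1a1 was lowest among cocultured arrays, and the other 4 cocultured arrays lay within or near the range of BMMCs. Its change of 3.18 (95% interval 0.27 to 6.10, adjusted p = 0.137) in knockout and 1.95 (-0.97 to 4.86, adjusted p = 0.406) in wild-type cells did not pass, and a second probe read 3.57 (adjusted p = 0.0776) and 2.54 (adjusted p = 0.226). Without the slide 4 pair Col18a1 rose by 4.55 in knockout cells (SE 0.64, adjusted p = 0.000862) and had a change of 0.56 in wild-type cells (adjusted p = 0.561). Col18a1 itself splits the cocultured arrays as their first principal component does, so this call depends on which arrays were left out. Col15a1, the other multiplexin, had changes of -0.16 in knockout (95% interval -1.04 to 0.73) and -0.13 in wild-type cells (-1.01 to 0.75).

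**Figure D4:**
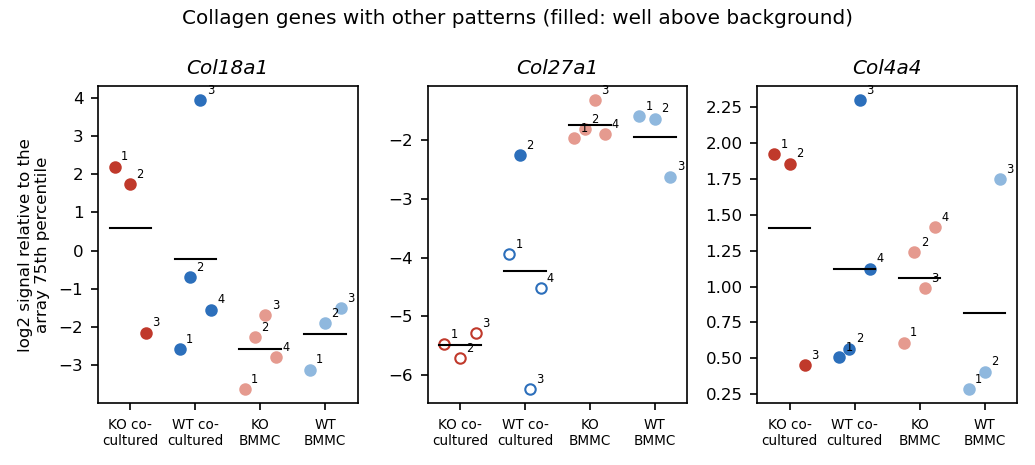
Level of Col18a1, Col27a1 and Col4a4 (log2 signal relative to the 75th percentile of the array) on each array, by group as named under each panel (KO knockout, WT wild-type); points are arrays numbered by replicate, filled where well above background, and bars are group means. Col18a1 and Col4a4 are highest among cocultured arrays on knockout cocultured 1 and 2 and wild-type cocultured 3, and Col27a1 lies lower after coculture, wild-type cocultured 2 being the 1 cocultured array on which the probe drawn was detected.

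The cocultured arrays kept much the same order across collagens. Knockout cocultured 1 and 2 and wild-type cocultured 3 were the 3 lowest of the 7 arrays for 17 of 24 tested collagens, including all 12 that rose in wild-type coculture, and wild-type cocultured 2 was the highest for 18 of 24, again including all 12. The levels of those 12 spanned 3.98 to 7.69 on the log2 scale between the lowest and highest cocultured array. For Col4a4 and Col18a1 the same 3 arrays were the highest. The first principal component of the 7 cocultured arrays, with 53% of their variance, set these 3 arrays apart as well. The share of all genes with this order was not counted, so the order is not shown to be particular to collagens.

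Markers of fibroblasts other than collagens were detected more widely after coculture. Their summed signal, which is weighted to the strongest markers, ran otherwise across the cocultured arrays than the collagens did. Of 25 such markers, 14 to 23 were detected on knockout cocultured arrays and 16 to 24 on wild-type cocultured arrays, against 6 to 9 on knockout BMMC arrays and 7 to 8 on wild-type BMMC arrays. Their summed signal, on the log2 scale, was 8.88, 8.85 and 7.26 in knockout cocultured cells and 7.61, 8.46, 8.60 and 7.58 in wild-type cocultured cells, against 7.04 to 7.38 in knockout BMMCs and 6.89 to 7.22 in wild-type BMMCs. The sum was thus highest on the 3 cocultured arrays where the collagens that rose were lowest, and knockout cocultured 3 lay within the BMMC range. S100a6, a calcium-binding protein, made up 52.9% to 66% of it in knockout and 29.3% to 60.1% in wild-type cocultured cells, against 71.6% to 81% and 62.1% to 79.6% in knockout and wild-type BMMCs, and did not pass in either genotype (without the slide 4 pair it rose by 1.44 in knockout cells, adjusted p = 0.000809). Without S100a6, a sum chosen after its values were seen, it was 7.45, 7.29 and 6.18 in knockout cocultured cells and 6.83, 7.95, 7.28 and 6.59 in wild-type cocultured cells, with every BMMC array at 5.82 or lower. That sum still held Ccl7, a strong marker that did not pass in wild-type coculture. Among cocultured arrays Ccl7 was highest on knockout cocultured 1, at 6.97, and lowest on knockout cocultured 3, at 3.01. The median marker was at -2.20, -0.94 and 0.70 on the knockout cocultured arrays and 1.61, 2.98, -1.67 and 1.36 on the wild-type cocultured arrays, lowest on the same 3 arrays as the collagens. Limma found 10 of 23 tested markers higher in knockout and 16 in wild-type coculture, with none lower (11 and 19 without the slide 4 pair). The same 3 arrays were lowest for 15 of the 23, an order not counted over all genes. Over all genes 7.78% were higher in knockout and 6.02% in wild-type coculture (18.9% and 9.7% without that pair).

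The matrix proteoglycan Dcn was detected on all 7 cocultured arrays and on no BMMC array, at 1.33, 1.52 and 2.61 in knockout cocultured cells and 3.44, 5.03, 1.08 and 3.07 in wild-type cocultured cells, with every BMMC array at -4.82 or lower. The surface marker Thy1 was detected on none of the 14 arrays. All 10 mast cell markers were detected on 13 arrays and 8 on knockout cocultured 2. Readings left out as outlier spots counted as not detected. The markers read on knockout cocultured 2 had a mean level of 7.40, against 7.45 and 6.63 on knockout cocultured 1 and 3. The count of 8 thus does not show a lower level. Of the 10 markers, 2 rose in knockout (3 without the slide 4 pair) and 1 in wild-type coculture. The shares of all genes that rose were 7.78% in knockout and 6.02% in wild-type coculture (18.9% and 9.7% without that pair). Of 7 macrophage markers, 6 were detected on each knockout cocultured array and 5 to 6 on wild-type cocultured arrays, against 4 to 6 and 3 to 7 on knockout and wild-type BMMC arrays, and 6 were tested. The lipopolysaccharide co-receptor Cd14 rose by 2.51 in knockout and 4.04 in wild-type coculture (adjusted p = 0.0177 and 0.00104), and the lysosomal protein Cd68 by 2.95 and 2.69 (adjusted p = 0.0248 and 0.0379), the call of Cd68 in wild-type cells being lost without the slide 4 pair (adjusted p = 0.0632). The Fc receptor gene Fcgr1 fell by 3.97 in wild-type coculture (adjusted p = 0.00627) and had a change of -1.89 in knockout cells (adjusted p = 0.139). Of 5 endothelial markers 2 or 3 were detected on every array, and neither of the 2 tested passed. The part of other cell types in the collagen results was not tested.

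Genes that fold, modify and cross-link collagen chains changed in part. Of 30 on the array 22 were tested, and 6 rose and 1 fell in knockout while 7 rose and 2 fell in wild-type coculture (7 and 0, and 8 and 3, without the slide 4 pair), with median log2 changes of -0.02 and -0.08. Those that rose were 27.3% and 31.8% of the tested, against 7.78% and 6.02% of all genes. Those that fell were 4.55% and 9.09%, near the 6.5% and 6.87% of all genes. Without the slide 4 pair, 18.9% of all genes rose and 11.9% fell in knockout, and 9.7% and 14% in wild-type coculture. Serpinh1, the collagen chaperone HSP47, was at 2.74, 3.55 and 2.96 in knockout cocultured cells and 4.10, 5.67, 2.88 and 4.24 in wild-type cocultured cells, against -6.49, -6.39, -4.80 and -6.69 in knockout BMMCs and -5.72, -6.32 and -5.17 in wild-type BMMCs. It was detected on every cocultured and no BMMC array, and its cocultured arrays spanned a narrower range than those of Col1a1. Serpinh1 was at least 134-fold higher in knockout (adjusted p = 2.09e-06) and 301-fold in wild-type cells (adjusted p = 8.65e-07).

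Of the genes whose products act on collagen outside the cell, some rose. Adamts2, which removes the amino-terminal propeptide, rose at least 4.47-fold in knockout (adjusted p = 0.0245) and 26.2-fold in wild-type coculture (adjusted p = 0.00211). Pcolce and Pcolce2, which enhance removal of the other propeptide, rose by 4.01 and 3.97 in knockout and by 5.43 and 4.58 in wild-type cells on the log2 scale. The cross-linking enzyme Loxl1 rose at least 5.79-fold in knockout and 19.5-fold in wild-type cells. The related Lox rose by 4.10 in wild-type cells (adjusted p = 0.042) and had a change of 2.22 in knockout cells (adjusted p = 0.248). The other tested extracellular enzymes of the list did not pass in either genotype: the procollagen C-proteinase Bmp1 had changes of -0.05 in knockout and 2.93 in wild-type cells (adjusted p = 0.98 and 0.0885), Loxl2 -0.38 and 1.45, and Adamts14 0.03 and -0.51. Without the slide 4 pair Bmp1 rose by 3.62 in wild-type cells (adjusted p = 0.032).

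Within the endoplasmic reticulum, Fkbp10, a prolyl isomerase that acts on procollagen, rose at least 5.54-fold in knockout and 16.1-fold in wild-type coculture. The prolyl 4-hydroxylase subunit P4ha1 fell by 1.54 in wild-type cells (SE 0.35, adjusted p = 0.0112) and had a change of -0.79 in knockout cells (adjusted p = 0.147). Crtap, a partner of prolyl 3-hydroxylase, fell by 0.86 in wild-type cells (SE 0.23, adjusted p = 0.0262), and P3h3 fell by 1.41 in knockout cells (SE 0.43, adjusted p = 0.0464), a call lost without the slide 4 pair (-0.93, adjusted p = 0.104). Both P4ha1 and Crtap were detected on all arrays.

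Of 10 collagen receptor genes 5 were tested. Over all genes 7.78% rose in knockout and 6.02% in wild-type cells (18.9% and 9.7% without the slide 4 pair). Of the 5 receptor genes, 1 rose in each genotype (3 in knockout and 2 in wild-type cells without that pair). That was Ddr2, a receptor tyrosine kinase for fibrillar collagen, which was at -4.61, -3.45 and -1.59 in knockout cocultured cells and -1.59, -0.03, -3.48 and -1.89 in wild-type cocultured cells and was detected on no BMMC array. It rose at least 1.7-fold in knockout (adjusted p = 0.021) and 4.81-fold in wild-type cells (adjusted p = 0.00273). Lair1, an inhibitory collagen receptor of leukocytes, was detected on all arrays and had changes of 0.66 (adjusted p = 0.588) in knockout and -0.05 (adjusted p = 0.979) in wild-type cells. Its cocultured levels were 3.11, 2.99 and -0.28 in knockout and 1.02, 1.42, 2.88 and 1.34 in wild-type cells, the same 3 arrays being highest as for Col18a1, and without the slide 4 pair Lair1 rose by 1.77 in knockout cells (adjusted p = 0.00306).

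Knockout cells were set against wild-type cells before and after coculture to ask whether loss of Pla2g3 went with a difference in collagen RNA. In BMMCs no collagen passed in limma, the changes of the 24 ranging from -0.70 to 0.46, and 0% of 16010 genes passed, with 169 genes (1.06%) at an unadjusted p under 0.05. In cocultured cells no collagen passed either, nor did any other gene (0% of 16010, with 607 or 3.79% at an unadjusted p under 0.05). The median difference of the 24 collagens was -1.58, against 0.05 over all genes, and it was -0.94 without wild-type cocultured 2, -0.97 with the slide as a block, -0.10 with normexp background correction and -2.89 without the slide 4 pair. Col1a1 differed by -2.37 (95% interval -4.80 to 0.06), Col3a1 by -2.47 (-4.81 to -0.13) and Col18a1 by 0.82 (-2.10 to 3.73), each with an adjusted p of 0.796 or more. The test of whether coculture acted differently in the genotypes called no collagen and 0% of all genes, with 131 genes (0.818%) at an unadjusted p under 0.05.

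Within slides the difference between cocultured knockout and wild-type arrays changed sign. On slide 2, with 1 array each, 19 of 24 collagens were lower and 5 higher in knockout cells, with a median of -1.99. On slide 4, again with 1 array each, 3 were lower and 21 higher, with a median of 2.06, and 22 of the 24 had opposite signs on the 2 slides. Opposite signs were not counted over all genes, so they are not shown to be particular to collagens. Both cocultured arrays of slide 4 lay with the other genotype on the first principal component. Col1a1 differed by -3.11 on slide 2 and 3.04 on slide 4, Col3a1 by -3.43 and 3.03, and Col18a1 by 4.32 and -6.08. Slides 1 and 3 held cocultured arrays of 1 genotype and give no such value.

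Without the arrays labelled knockout cocultured 3 and wild-type cocultured 3, 14 collagens were lower and 1 higher in knockout cocultured cells, while 25.3% of 15911 genes passed, 16% higher and 9.31% lower. The lower ones included Col1a1 (log2 difference -4.46, SE 0.64, adjusted p = 0.00205), Col3a1 (-4.66, SE 0.52, adjusted p = 0.00104), Col6a1 (-5.20, adjusted p = 0.00256) and Col4a2 (-4.87, adjusted p = 0.00217), and the 1 higher was Col18a1 (3.57, SE 0.67, adjusted p = 0.00551). Neither remaining knockout cocultured reading of Col4a2 was detected, nor was that of Col6a1 on knockout cocultured 1. The differences of Col4a2 and Col6a1 thus rest on readings below background and are no measure of size. The coculture effect differed between genotypes for 12 of the 24, 11 lower and 1 higher in knockout cells, against 12.7% of all genes, 9.06% higher and 3.68% lower. This comparison then rests on 2 knockout and 3 wild-type cocultured arrays, and its calls depend on leaving out arrays that lie against their labels. Genotype and slide are only partly separated in it. In coculture against BMMCs, the same omission gave 9 collagens higher and 1 lower in knockout (18.9% and 11.9% of all genes) and 15 higher and 1 lower in wild-type cells (9.7% and 14%).

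**Figure D5:**
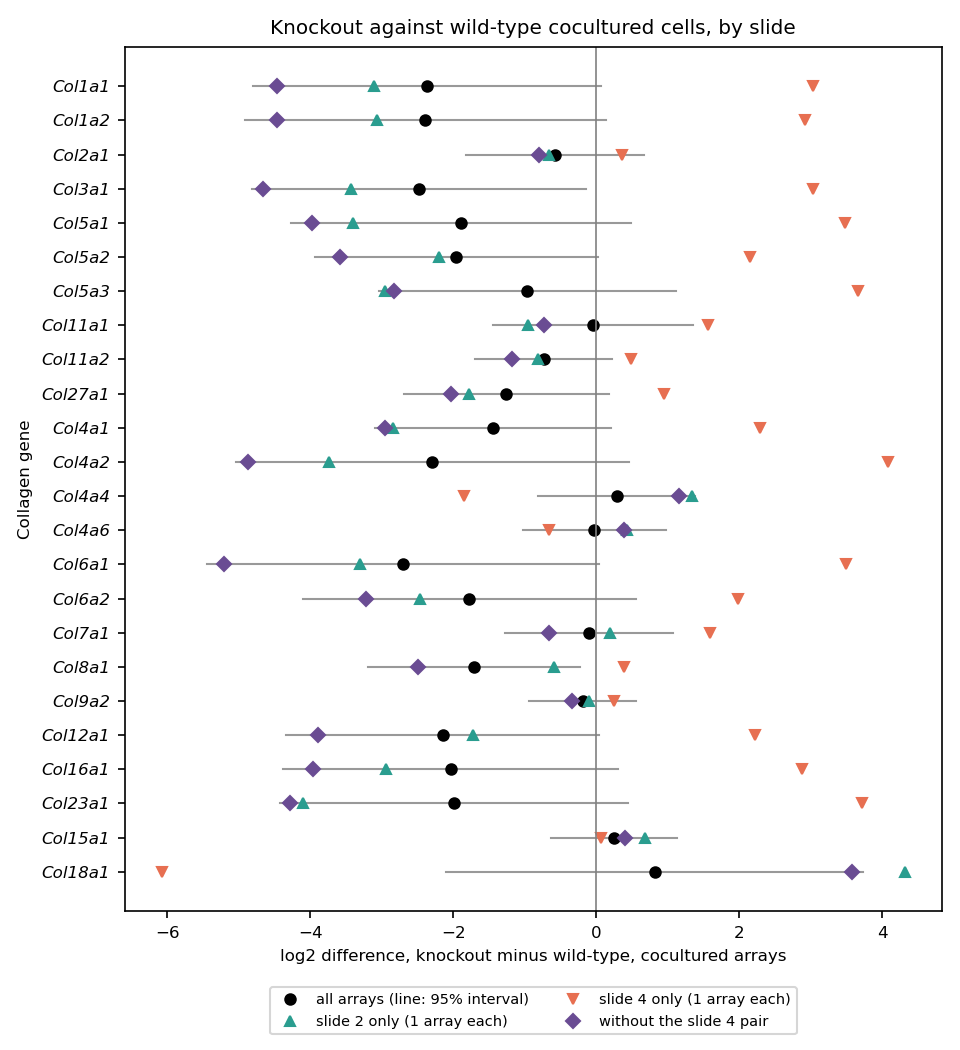
Log2 difference, knockout minus wild-type cocultured arrays (horizontal), for the 24 tested collagen genes (down the page), from all arrays with the 95% interval (circles and lines), from slide 2 (upward triangles, 1 array each), from slide 4 (downward triangles, 1 array each) and without the cocultured pair of slide 4 (diamonds). Of the 24, 22 have slide 2 and slide 4 triangles on opposite sides of 0, and Col1a1 lies at -3.11 and 3.04.

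Where a gene had several probes they did not always give the same call. Of the 28 collagens with 2 or more probes, 11 had at least 2 that were tested. In knockout coculture 4 of the 11 passed by the probe that stood for the gene and in none did every tested probe pass, and in wild-type coculture 6 passed by that probe, and in 2 of these, Col4a1 and Col5a1, every tested probe did. The second tested Col3a1 probe had changes of 0.64 (adjusted p = 0.638) in knockout and 1.95 (adjusted p = 0.135) in wild-type cells, and that of Col1a1 had 1.72 (adjusted p = 0.394) and 3.92 (adjusted p = 0.0597). The probes differed in sign for 2 of the 11 genes in each genotype. The probe that stood for the gene was the nearest to the 3′ end in 12 of the 17 tested collagens with 2 or more probes named by a transcript.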

How the data were processed

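RNA of 14 samples was labelled with Cy3 and read on single-colour arrays. Spot intensity was extracted by the authors in Agilent Feature Extraction 9.5.1.1, per the file headers. Here log2 processed signals were expressed relative to the array's 75th percentile. Outlier spots (74 to 326 per array) and controls were left out, and spots of 1 probe were averaged. A probe had to be well above background on 3 or more arrays, and the one of highest mean signal was used for each gene, which gave 16010 genes. For collagens that rule also named the probe where no probe passed. Signal at the 75th percentile was 69.4 to 176 units, 0 to 3 probes per array were saturated, and precision is limited by how many arrays there are.

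Limma 3.58.1 in R 4.3.3, with data.table (version 1.17.8), fitted the 4 groups together, with 5 two-sided contrasts and Benjamini-Hochberg adjustment over all genes. A gene passed, rose or fell at an adjusted p under 0.05. Folds are lower bounds where a group had no reading well above background. For that group the bound uses, per array, the higher of the lowest signal well above background and the probe's own reading. All readings of the other group are used as they are, also those below background. Probe positions are those on mm9 in the file headers and probe columns. Promoters are from RefSeq on GRCm38.p6, which gave no entry for Col1a1, Col2a1, Col4a3, Col5a2, Col9a3, Col12a1, Col14a1 and Col22a1.

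All 39 collagen genes and every gene of the lists for biosynthesis, receptors and cell type markers were eligible to be named. The members and lists were chosen with earlier results of these data known. The fit was tested on simulated data for 16010 genes, in which coculture of knockout cells recovered 12%, 56%, 80% and 90%, and coculture of wild-type cells 10%, 58%, 80% and 92%, of genes changed by 1, 2, 3 and 4 on the log2 scale. Simulated noise was independent between arrays, with 1 spread per gene for all groups. The cocultured arrays instead shared an order across collagens, so these rates do not describe the collagens. Equal replicate numbers of knockout and wild-type BMMCs also shared a slide, and their deviations from the group means correlated at 0.197, 0.497 and 0.491 across genes for numbers 1 to 3. A shared replicate and a shared slide cannot be told apart in these values. In the other comparisons at least 1 number correlated below 0.1. The alternatives covered scaling, background correction, filters, probes, slide, replicate number and arrays left out.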

Additional observations from a re-analysis of the deposited data

Results flagged for a closer look

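In 4 of the 48 groups of 4 arrays tested for an outlying array (24 collagens, wild-type cocultured and knockout BMMC arrays), 1 array lay apart from the others by more than Dixon's 95% critical value allows, where chance alone gives about 1 in 20. All 4 were knockout BMMC arrays. Col1a1 on knockout BMMC 3 was at -4.86, the next array being at -6.26. Col12a1 on the same array was at -4.96, against -6.52 on the next, and Col16a1 at -4.30, against -6.36. None of these 3 readings was well above background, and the lowest signal well above background was -2.75 on knockout BMMC 3, against -4.56 to -3.48 on the other 13 arrays. Col8a1 on knockout BMMC 1 was at -3.51, the next array being at -4.46, and was the 1 reading of its group well above background.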

How the results depend on the processing

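Of the 21 calls of collagens in coculture, re-examined in up to 25 other settings each, 48 of 522 were lost and 0 reversed. In wild-type coculture Col1a1, Col1a2, Col3a1, Col5a1, Col5a2 and Col16a1 passed in all 25, while Col27a1 was lost in 14, Col4a2 in 9 of 24, Col12a1 in 5 of 24 and Col4a1 in 4. In knockout coculture no collagen passed in all 25, and 12 of 200 were lost. With normexp background correction 0 collagens passed in knockout and 6 in wild-type coculture, and with readings below background set to the lowest signal above it 5 passed in knockout; the cause was not tested. Leaving out 1 array gave 8 to 12 calls in knockout and 10 to 15 in wild-type coculture, both highest without wild-type cocultured 3, the other knockout counts being 8 or 9, and 0 in the genotype comparisons and the interaction. Without both cocultured arrays of slide 4, 15 collagens passed between knockout and wild-type cocultured cells and 12 in the interaction; in every other setting both counts were 0, as was that of BMMCs in all settings. With the replicate block 7 collagens passed in knockout and 9 in wild-type coculture and 0 in the other comparisons, so that block changed no call in those other comparisons, and with the slide block 8 and 10 passed. Over all genes, normexp called 5.7% in knockout and 5.62% in wild-type coculture, against 14.3% and 12.9%. Scaling by the median moved the median change of all genes in wild-type coculture to -0.24 (-0.06 with the 75th percentile), and scaling on probes detected everywhere moved that of knockout coculture to -0.16 (0.07); no collagen call changed sign under either. Readings below background, most collagens in BMMCs among them, limit folds to lower bounds.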
